A study of Mus musculus with 18 samples.

Results

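The simple epithelial keratins are the intermediate filament proteins of single-layered epithelia, and 4 of their genes are described here: Krt7, Krt8, Krt18 and Krt19. They were taken by gene symbol, and they are 4 of the 19937 genes that the platform annotation names on the array. Each was represented by 1 probe set. Gene expression had been measured on 18 mouse arrays, with 3 arrays in each of 6 groups. EOS3F-24 was a partially reprogrammed induced pluripotent stem (iPS) line, and the same line was measured again once converted in 2i, which combines inhibitors of MEK (2 μM) and of GSK (12 μM). EOS3F-28 and EOS3F-29 were fully reprogrammed iPS lines, J1 was an embryonic stem (ES) cell line, and the starting cells were embryonic fibroblasts of CD1 mice (MEFs). All 3 iPS lines had been made from CD1 MEFs with retroviruses carrying Oct4, Klf4 and Sox2, and they were kept in puromycin at 1 μg/mL. Partial cells were a single line, so what belongs to that line and what belongs to partial reprogramming cannot be told apart. The iPS and ES cells grew with LIF on growth-arrested feeder cells, while the MEFs were grown without this system, so culture and cell state cannot be told apart in comparisons with MEFs. In RNA from bulk cultures, fewer cells of a type and less RNA per cell cannot be told apart. Nothing in the labels states whether the 3 arrays of a group came from separate cultures, so p-values measure the spread between these arrays.

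Keratin filaments are built from pairs of a type I and a type II protein. Krt7 and Krt8 are type II, Krt18 and Krt19 are type I, and Krt8 with Krt18 is the best known pair of simple epithelia and the first to appear in the trophectoderm of the mouse embryo. Krt7 and Krt19 are known from ducts and glands, and Krt19 is also made by mesothelium. Fibroblasts fill the same place in the cell with vimentin. During reprogramming of fibroblasts, epithelial genes are switched on while the repressors of the mesenchymal state, Snai1, Snai2, Zeb1 and Zeb2, go down.

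Krt7, Krt8 and Krt18 lie on mouse chromosome 15 and Krt19 on chromosome 11. Krt8 and Krt18 are next to each other in the gene table. RefSeq promoters (build GRCm38.p6) were held for 3 of the 4 genes, and the 250 bases before each transcription start are shown because Krt8 and Krt18 are neighbours and partners whose calls differed between comparisons. The windows are chr15:101412153-101412402 on the plus strand for Krt7, chr15:102004343-102004592 on the minus strand for Krt8 and chr15:102027966-102028215 on the plus strand for Krt18. Capitals mark matches, on both strands, to GGGCGG (the GC box), CAGGTG (the E-box that Snail and Zeb repressors recognise), CACCC (a Klf-type motif), TATAAA (the TATA box) and TGANTCA (the AP-1 motif).
Krt7: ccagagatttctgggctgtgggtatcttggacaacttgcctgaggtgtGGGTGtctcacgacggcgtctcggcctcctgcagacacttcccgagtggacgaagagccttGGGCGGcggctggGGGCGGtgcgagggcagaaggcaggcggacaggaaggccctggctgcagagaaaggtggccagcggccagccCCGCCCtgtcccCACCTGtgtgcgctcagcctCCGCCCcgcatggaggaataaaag
Krt8: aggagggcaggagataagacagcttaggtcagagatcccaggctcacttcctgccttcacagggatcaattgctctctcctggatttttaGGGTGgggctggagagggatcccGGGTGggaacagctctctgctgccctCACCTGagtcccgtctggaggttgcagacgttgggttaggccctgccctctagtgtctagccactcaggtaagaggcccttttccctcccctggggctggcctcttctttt
Krt18: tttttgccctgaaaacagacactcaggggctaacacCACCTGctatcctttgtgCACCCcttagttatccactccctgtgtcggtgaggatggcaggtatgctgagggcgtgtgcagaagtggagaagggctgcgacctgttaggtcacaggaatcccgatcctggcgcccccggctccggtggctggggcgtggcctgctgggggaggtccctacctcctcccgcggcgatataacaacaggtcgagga
CAGGTG occurred once in each of the 3 windows, 44 bases before the start of Krt7, 111 bases before that of Krt8 and 214 bases before that of Krt18. It was present in 17.3% of 32536 promoter windows of the same length. CACCC matched once in Krt7, in 2 places in Krt8 and once in Krt18, and 52.1% of all windows held it. GGGCGG matched in 4 places in Krt7 and in neither of the others, against 33% of all windows. TATAAA and TGANTCA, held by 12.3% and 6.73% of all windows, had no match in these 3. No matches of different motifs overlapped.

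Arrays were alike in overall level, with medians between 3.92 and 4.11 (log2), and the correlation between replicate arrays over genes was 0.971 to 0.987. The 3 MEF arrays had a mean of 8.997 to 9.32 over 16 fibroblast and feeder genes, and the other 15 arrays had 6.14 to 8.27. Some arrays stood apart. MEF replicate 2 had a Krt5 value of 7.70, against 3.49 and 3.62 in the other 2 MEF arrays, and a Krt14 value of 7.10, against 4.097 and 4.18. Krt5 and Krt14 are the keratins of basal cells in stratified epithelia. Of the simple keratins of that array, Krt7 lay farthest from its MEF mean, at -0.23. The replicate 1 arrays of the feeder-grown groups had more fibroblast and feeder signal and less Krt19 than their partners, as described at the end. Levels below are the deposited log2 values, a difference is one of log2 means with its SE, and a gene was called at an adjusted p under 0.05 over all genes (limma). The mean of each keratin in each group exceeded 3.62, the 95th percentile of 1027 olfactory receptor genes, which are taken as silent here. Where every array of a group lay under that level, the difference is given as a least fold, with those arrays set at the level, and no size is given where both groups did.

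Of the 4 keratins, Krt19 had the largest differences between the partial line and the other groups. Krt18 was also called, lower, in partial cells against full iPS and J1 cells. Outside the 4, Krt13, Krt14 and Krt42 had their highest means in the partial line too, as given below. Krt19 had values of 7.09, 9.27 and 9.56 in the 3 partial arrays and 4.41, 6.003 and 5.27 after 2i conversion. It had 5.02, 7.34 and 6.19 in EOS3F-28, 4.23, 6.50 and 5.72 in EOS3F-29, and 4.40, 6.23 and 5.98 in J1 cells. The MEFs had 5.62, 5.17 and 5.0003. The lowest partial array, replicate 1 at 7.09, lay below EOS3F-28 replicate 2 at 7.34, the highest array outside the partial group. Group means were 8.64 ± 1.35 in partial cells, 5.23 ± 0.80 in converted cells, 6.18 ± 1.16 in EOS3F-28, 5.48 ± 1.15 in EOS3F-29, 5.53 ± 0.99 in J1 and 5.27 ± 0.32 in MEFs (SD, n = 3 each).

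**Figure D1:**
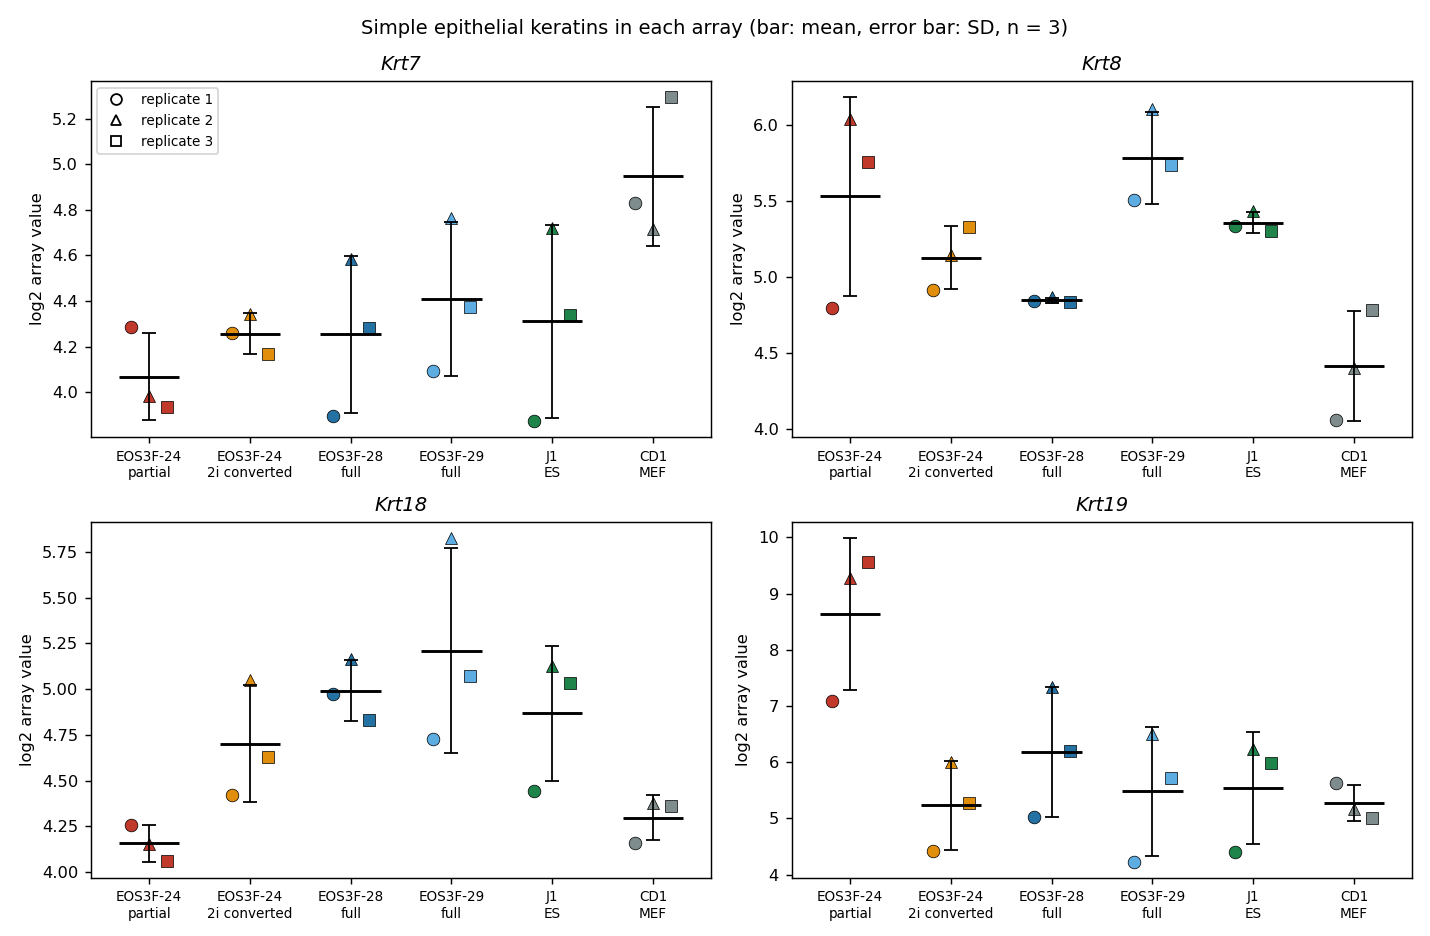
Log2 array value (vertical axes, a separate scale for each gene) of Krt7, Krt8, Krt18 and Krt19 in the 6 groups (horizontal axis). Each point is an array, its shape gives the replicate number, the bar is the mean and the error bar the SD (n = 3). Krt19 averages 8.64 in partial cells and 5.23 to 6.18 in the other groups, and Krt7 is highest in MEFs.

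Krt8, the type II keratin that comes first in the embryo, had its lowest mean in MEFs. Its values were 4.79, 6.03 and 5.76 in partial cells, 4.91, 5.14 and 5.32 in converted cells, 4.84, 4.86 and 4.83 in EOS3F-28, 5.50, 6.10 and 5.73 in EOS3F-29 and 5.33, 5.43 and 5.30 in J1 cells. The MEF values were 4.06, 4.40 and 4.78, and the lowest value of the other 5 groups was 4.79, in partial replicate 1. Means were 5.53 ± 0.65 in partial cells, 5.13 ± 0.21 in converted cells, 4.85 ± 0.02 in EOS3F-28, 5.78 ± 0.30 in EOS3F-29, 5.36 ± 0.07 in J1 and 4.41 ± 0.36 in MEFs (SD, n = 3 each).

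Krt18, the type I partner of Krt8, followed another order. Its values were 4.26, 4.16 and 4.06 in partial cells, 4.42, 5.05 and 4.63 in converted cells, 4.97, 5.17 and 4.83 in EOS3F-28, 4.73, 5.83 and 5.07 in EOS3F-29 and 4.44, 5.13 and 5.03 in J1 cells. MEFs had 4.16, 4.38 and 4.36. The partial arrays thus lay among or below the MEF arrays. The lowest converted, full iPS or J1 array was converted replicate 1 at 4.42, close to the highest MEF array at 4.38. Means were 4.16 ± 0.10 in partial cells, 4.70 ± 0.32 in converted cells, 4.99 ± 0.17 in EOS3F-28, 5.21 ± 0.56 in EOS3F-29, 4.87 ± 0.37 in J1 and 4.30 ± 0.12 in MEFs (SD, n = 3 each).

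Krt7, a type II keratin of ducts and glands, was the member with its highest mean in fibroblasts. Its values were 4.29, 3.98 and 3.93 in partial cells, 4.26, 4.34 and 4.17 in converted cells, 3.90, 4.59 and 4.28 in EOS3F-28, 4.09, 4.76 and 4.37 in EOS3F-29 and 3.87, 4.72 and 4.34 in J1 cells. MEFs had 4.83, 4.71 and 5.29. The replicate 2 arrays of EOS3F-29 and J1 reached into the MEF range. Among the partial, converted and EOS3F-28 arrays the highest value was 4.59, in EOS3F-28 replicate 2. Means were 4.07 ± 0.19 in partial cells, 4.26 ± 0.09 in converted cells, 4.25 ± 0.35 in EOS3F-28, 4.41 ± 0.34 in EOS3F-29, 4.31 ± 0.42 in J1 and 4.95 ± 0.31 in MEFs (SD, n = 3 each).

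When the 6 groups were put in order for each gene, 1 of 20 differences between neighbours in the order was called. It was Krt19 in partial cells over EOS3F-28, at 2.46 ± 0.70 (adjusted p = 0.0233), a comparison in which 14.6% of all genes were called. Below it the Krt19 means ran from EOS3F-28 through J1, EOS3F-29 and MEFs to converted cells, with neighbours 0.04 to 0.65 apart. No neighbours in the order of Krt7, Krt8 or Krt18 differed beyond their spread. The widest such gap, 0.54 by which EOS3F-29 lay below MEFs for Krt7, had an adjusted p of 0.0719.

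Reprogramming was first read against the starting fibroblasts. In partial cells against MEFs, 3 of the 4 keratins were called and 23.7% of all genes were. Krt19 rose by 3.38 ± 0.70, a 10.4-fold higher value (adjusted p = 0.00151). Krt8 rose by 1.11 ± 0.24 (adjusted p = 0.00235) and Krt7 fell by 0.88 ± 0.22 (adjusted p = 0.00626). Krt18 differed by -0.14 ± 0.23 (adjusted p = 0.730), so Krt8 was called and its partner was not.

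In full iPS cells, taken as the mean of both lines, 3 of the 4 were again called against MEFs, in a comparison that called 35% of all genes. Here Krt8 rose by 0.90 ± 0.21 (adjusted p = 0.00256), Krt18 rose by 0.80 ± 0.20 (adjusted p = 0.00375) and Krt7 fell by 0.61 ± 0.19 (adjusted p = 0.0165). Krt19 differed by 0.57 ± 0.60 (adjusted p = 0.524). The Krt8 call rested on EOS3F-29, since for EOS3F-28 alone the difference was 0.43 (adjusted p = 0.211). The Krt7 call was lost with EOS3F-29 alone (-0.54, adjusted p = 0.0719) and without MEF replicate 3 (-0.44, adjusted p = 0.129). Without the replicate 1 arrays of the feeder-grown groups, Krt19 was called in full iPS cells too, at 1.17 (adjusted p = 0.00195). Those arrays had the lowest Krt19 of their groups and were left out after this was seen. The higher Krt19 mean follows from that choice, so the call is not separate support for a rise.

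J1 cells and converted cells each had 2 of the 4 keratins called against MEFs, where 38% and 37.5% of all genes were called. Krt8 rose by 0.94 ± 0.24 in J1 cells (adjusted p = 0.00479) and by 0.71 ± 0.24 in converted cells (adjusted p = 0.0277). Krt7 fell by 0.64 ± 0.22 in J1 cells (adjusted p = 0.0283) and by 0.69 ± 0.22 in converted cells (adjusted p = 0.0182). Krt18 differed by 0.57 ± 0.23 in J1 cells (adjusted p = 0.0579) and by 0.40 ± 0.23 in converted cells (adjusted p = 0.187), and Krt19 by 0.27 ± 0.70 and -0.04 ± 0.70, neither called. These calls rested on few arrays. Krt8 in converted cells lost its call without MEF replicate 2, the array with high Krt5 and Krt14 (0.70, adjusted p = 0.0623), and also without MEF replicate 1, converted replicate 2 or converted replicate 3 (adjusted p = 0.0681 to 0.139) and with housekeeping centring (0.41, adjusted p = 0.139). Krt7 lost its call without MEF replicate 3 in converted cells (adjusted p = 0.103) and in J1 cells (adjusted p = 0.144), without converted replicate 3 (adjusted p = 0.0617), and without J1 replicate 1 or 3 (adjusted p = 0.153 and 0.0606). Krt18 in J1 cells was called without J1 replicate 1 (0.78, adjusted p = 0.0140). Without the feeder-grown replicate 1 arrays, Krt18 was called in converted cells (0.54, adjusted p = 0.0364) and Krt19 in J1 cells (0.84, adjusted p = 0.0439). In J1 and converted cells the arrays left out had the lowest Krt18 and Krt19 of their groups. The higher means follow from leaving them out. No other call on a keratin against MEFs was lost without MEF replicate 2.

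**Figure D2:**
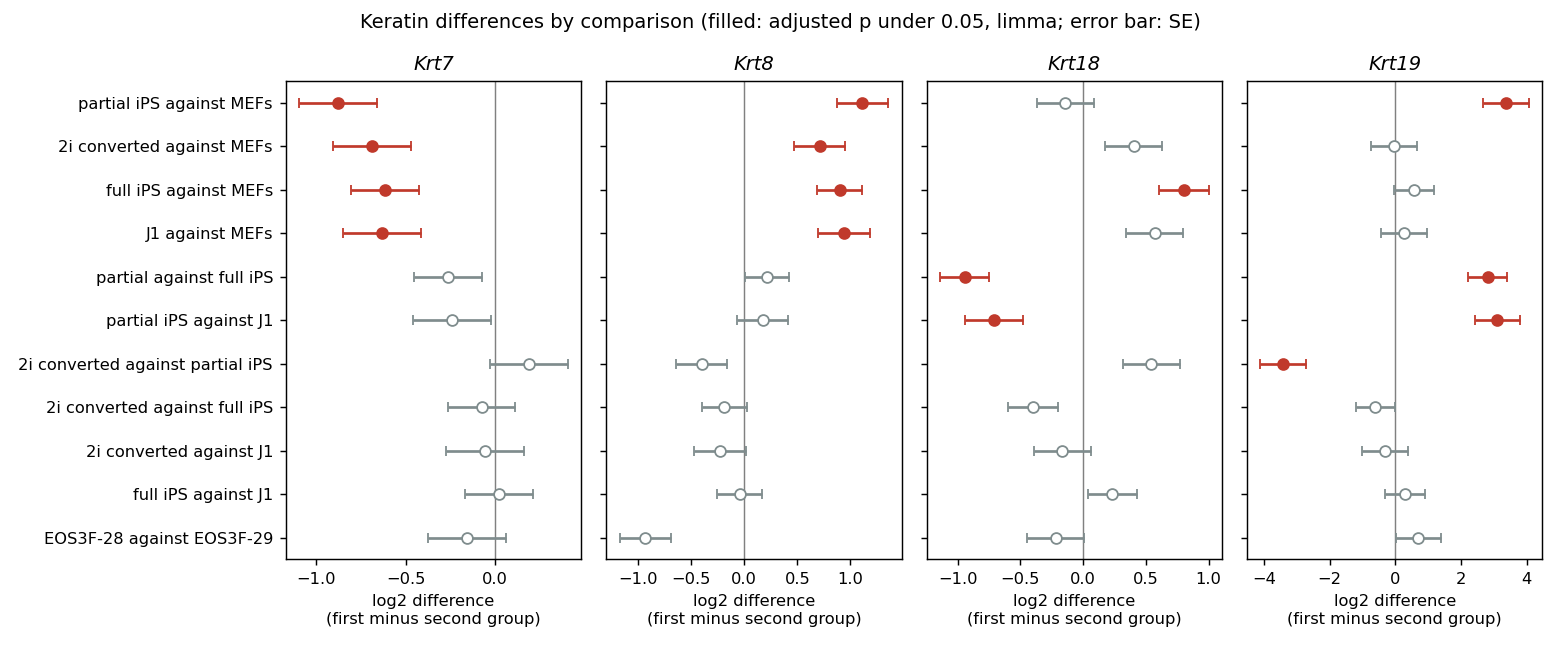
Log2 difference, first group minus second (horizontal axes, a separate scale for each gene), of each keratin in the 11 comparisons (rows), with SE. Filled points were called at an adjusted p under 0.05 (limma). Krt19 is called in the 4 comparisons that set the partial line against another group, Krt8 and Krt7 in all 4 comparisons with MEFs.

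Partial cells were then set against the pluripotent lines. Against full iPS cells 2 of the 4 keratins were called, in opposite directions, and 18.6% of all genes were called. Krt19 was higher by 2.81 ± 0.60 (7.01-fold, adjusted p = 0.00270) and Krt18 was lower, at -0.94 ± 0.20 (adjusted p = 0.00223). Krt8 differed by 0.22 ± 0.21 (adjusted p = 0.568) and Krt7 by -0.26 ± 0.19 (adjusted p = 0.405). Without the feeder-grown replicate 1 arrays both were called, Krt8 at 0.51 (adjusted p = 0.0472) and Krt7 at -0.54 (adjusted p = 0.0369). Krt8 was also called without partial replicate 1 alone (0.58, adjusted p = 0.0273). Partial replicate 1 had the lowest Krt8 and the highest Krt7 of its group, so leaving it out favours both calls. Against J1 cells the same 2 keratins were called among 22.9% of all genes, Krt19 at 3.11 ± 0.70 (adjusted p = 0.00302) and Krt18 at -0.71 ± 0.23 (adjusted p = 0.0307). The Krt18 call against J1 was lost without any 1 of 5 of the 6 arrays compared (adjusted p = 0.0509 to 0.135), the exception being J1 replicate 1.

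Krt19 was lower in the partial line after conversion in 2i. It was 1 of the 4 keratins called, against 22.4% of all genes, and it fell by 3.41 ± 0.70 (adjusted p = 0.00146), 10.7-fold. Within equal replicate numbers the Krt19 difference was -2.68, -3.27 and -4.29. Krt18 differed by 0.54 ± 0.23 (adjusted p = 0.102), Krt8 by -0.40 ± 0.24 (adjusted p = 0.285) and Krt7 by 0.19 ± 0.22 (adjusted p = 0.639). Equal replicate numbers paired the arrays in this comparison, and with the number as a block Krt18 was called as well at the same 0.54 (adjusted p = 0.0226), while the share of all genes called went to 26.2%. Krt8 was called at -0.77 without partial replicate 1 (adjusted p = 0.00851), the partial array with the lowest Krt8, and at -0.66 without all feeder-grown replicate 1 arrays (adjusted p = 0.0248).

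Converted cells were next set against the fully reprogrammed and ES cells. In converted against full iPS cells limma called 0 of the 4, and 5.16% of all genes. Differences were -0.60 for Krt19, -0.40 for Krt18, -0.19 for Krt8 and -0.08 for Krt7. Within equal numbers Krt18 differed by -0.43, -0.45 and -0.32 and Krt19 by -0.21, -0.91 and -0.68. Both were thus lower in converted cells at all 3 numbers. A fit of the feeder-grown arrays alone with replicate number as a block called Krt19 (-0.60, adjusted p = 0.0422) and not Krt18 (adjusted p = 0.0879). That fit was chosen after the data were seen, and it called 2084 of all 19937 genes, against 1029 without the block. Equal numbers did not pair these arrays throughout, since the deviations of number 3 had a correlation of -0.10. In converted against J1 cells the fit without the block called 0 of the 4, and 1.72% of all genes. Differences there were -0.31 for Krt19, -0.23 for Krt8, -0.17 for Krt18 and -0.06 for Krt7. Full iPS against J1 cells had 0 of the 4, and 4.76% of all genes, with differences between -0.04 and 0.30. Without the block the count at an unadjusted p under 0.05 was also 0 in all 3 comparisons. The SE of a Krt19 difference was 0.60 to 0.70 without the block, and 0.18 in converted against full iPS cells with it.

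The 2 full iPS lines differed most in Krt8. Arrays of EOS3F-28 had 4.84, 4.86 and 4.83 and arrays of EOS3F-29 had 5.50, 6.10 and 5.73, without overlap, as was the case for 15% of all genes. The difference was -0.93 ± 0.24 with an adjusted p of 0.117, so limma called 0 of the 4 keratins, and 0.532% of all genes. Krt8 alone had an unadjusted p under 0.05. Equal replicate numbers paired the arrays of these lines too, and with the number as a block Krt8 was called (-0.93, adjusted p = 0.0165) in a fit that called 0.988% of all genes. Hspb1, a small heat shock protein that binds keratin filaments, was lower in EOS3F-28 as well, at 7.35 against 8.36 in EOS3F-29 (-1.01 ± 0.21, adjusted p = 0.0362).

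The balance of a type II and a type I keratin within each array was compared in the same 11 comparisons, as Krt8 minus Krt18 and as Krt7 minus Krt19. Krt8 minus Krt18 averaged 1.37 ± 0.73 in partial cells (n = 3), against 0.21 ± 0.44 in full iPS cells (n = 6) and 0.12 ± 0.27 in MEFs (n = 3; SD). The exact two-sided permutation p of partial against full iPS cells was 0.0714, and 0.275 after adjustment over the 22 tests. Krt7 minus Krt19 averaged -4.57 ± 1.54 in partial cells (n = 3), against -1.50 ± 0.87 in full iPS cells (n = 6; SD), with an exact p of 0.0238, also 0.275 after adjustment. None of the 22 tests passed. Before adjustment 3 against 3 arrays cannot go below 0.10, and 6 against 3 arrays cannot go below 0.0238. With so little room to pass, these tests cannot decide whether the balance differed. The 6 full iPS arrays were also permuted as alike, although they came from 2 lines.

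Some other keratin genes were higher in the partial line too, and most were not called. Of 48 other keratin genes measured, 11 rose, 0 fell and 37 were not called in partial cells against MEFs. That is 22.9% called, against 23.7% of all genes (13.7% higher and 10% lower), and the median difference was 0.15, against 0.04 over all genes. Krt13, a keratin of internal stratified epithelia, had 8.05, 8.82 and 9.53 in partial cells, against 3.73, 3.51 and 3.47 in MEFs (5.23 ± 0.24, adjusted p = 5.22e-11), where 2 of the 3 MEF arrays lay under the olfactory level. Krt42 rose by 3.43 ± 0.17 (adjusted p = 2.30e-10). Krt14 rose by 3.19 ± 0.51 (adjusted p = 0.000166), although the MEF mean of 5.13 included replicate 2. Krt13 and Krt14 are neighbours of Krt19 on chromosome 11, and of the genes between, Krt15 rose at least 1.19-fold (adjusted p = 0.00533), while Krt9 lay under the olfactory level in both groups. Measured keratins numbered 27 on chromosome 11 and 25 on chromosome 15.

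In 2i, 10 of these 48 keratins fell and 1 rose against the partial line, 22.9% in all, against 22.4% of all genes (13% lower and 9.36% higher). Krt13 had 3.67, 3.66 and 3.59 in converted cells, against the 8.05, 8.82 and 9.53 of partial cells (-5.16 ± 0.24, adjusted p = 6.54e-11). Krt14 fell by 4.07 ± 0.51 (adjusted p = 1.43e-05). The one called higher, Krt86, lay under the olfactory level in both groups. Against full iPS cells 8 of 48 were higher in partial cells and 0 lower, 16.7% in all, against 18.6% of all genes. In full iPS cells against MEFs 10 rose and 0 fell, 20.8% against 35% of all genes, and 4 were called with housekeeping centring and 3 under cyclic loess. Between the full lines 2 of 48 were called, both higher in EOS3F-28. Krt13 was 5.68 in EOS3F-28 and 4.33 in EOS3F-29 (1.36 ± 0.24, adjusted p = 0.0106), and Krt6b was at least 2.55-fold higher in EOS3F-28 (adjusted p = 0.0212). Krt14 had 6.71 in EOS3F-28 and 4.88 in EOS3F-29 and was not called (adjusted p = 0.155). Krt8 had its lower mean in EOS3F-28.

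**Figure D3:**
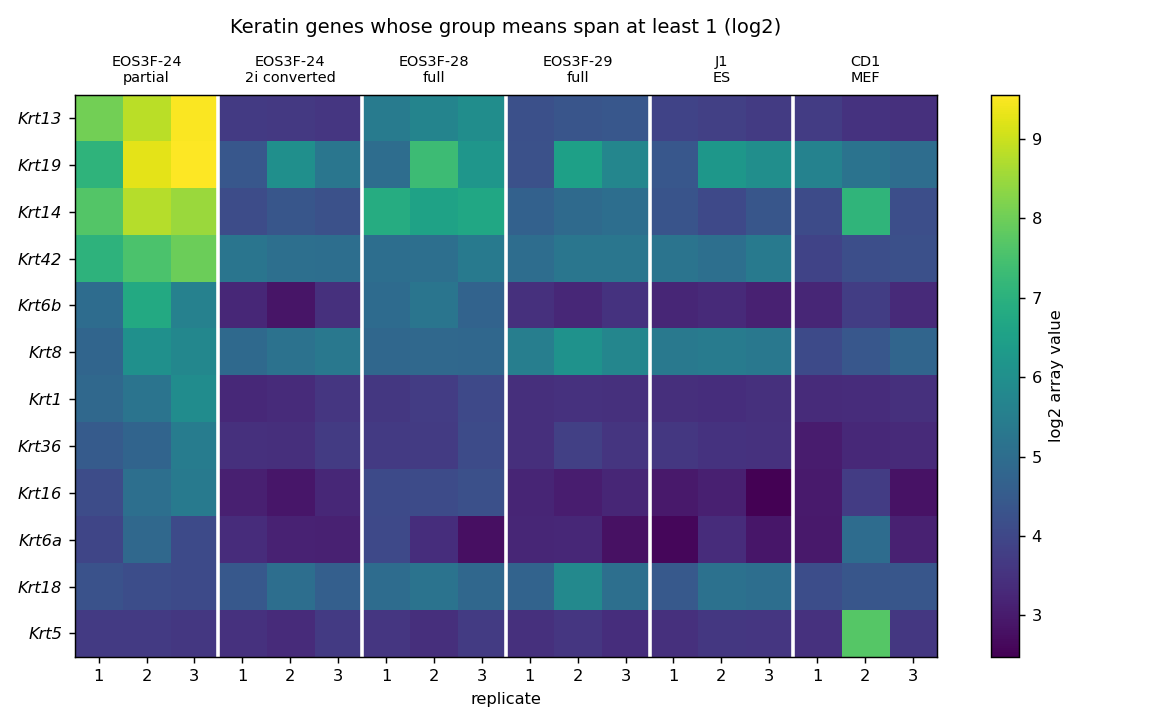
Log2 array value (colour) of each keratin gene whose group means span at least 1, by array (columns, replicates 1 to 3 within a group) and gene (rows, by mean in partial cells). Krt13, Krt14 and Krt42 are highest in the 3 partial arrays, Krt19 in partial replicates 2 and 3, Krt13 and Krt14 have intermediate values in EOS3F-28, and Krt5 is bright in MEF replicate 2 alone.

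Desmosome and filament-anchoring genes tie keratin filaments to the membrane. In partial cells against MEFs, 12 of 19 rose, 0 fell and 7 were not called, which is 63.2% called against 23.7% of all genes, with a median of 0.70, against 0.04 over all genes. Perp, a desmosomal membrane protein, was 8.21 in partial cells and 4.64 in MEFs (3.58 ± 0.16, adjusted p = 5.22e-11), and Dsp, the plakin that anchors keratin, was 6.75 in partial cells and 3.81 in MEFs (2.94 ± 0.29, adjusted p = 7.98e-07). In 2i, 9 of 19 fell and 0 rose (47.4% against 22.4% of all genes, median -0.39), with Dsg3 at least 4.39-fold lower (adjusted p = 7.78e-08) and Perp at -2.47 ± 0.16 (adjusted p = 5.09e-09). Against full iPS cells 9 of 19 were higher and 0 lower in partial cells (47.4% against 18.6% of all genes, median 0.34). Of 15 other intermediate filament genes, 1 rose and 3 fell in partial cells against MEFs, 26.7% in all, close to the 23.7% of all genes. Vim was 10.7 in partial cells and 11.7 in MEFs (-0.99 ± 0.24, adjusted p = 0.00527), and Nes was 4.02 in partial cells and 6.36 in MEFs (-2.34 ± 0.19, adjusted p = 1.15e-07), and Des was also among the falls (-1.03 ± 0.21, adjusted p = 0.00138). Of 13 keratin-binding and turnover genes, 2 rose and 2 fell in partial cells against MEFs (30.8% called), among them Sfn, a 14-3-3 protein of epithelia (1.74 ± 0.28, adjusted p = 0.000163). Sfn fell by 1.41 ± 0.28 in 2i (adjusted p = 0.00114).

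Of 17 epithelial transcription genes, 12 rose and 0 fell in partial cells against MEFs, 70.6% called against 23.7% of all genes, with a median of 0.65. The 12 include Klf4, which the retroviruses also carried. Against MEFs 12 rose in full iPS cells (35% of all genes called), 11 in J1 cells (38%) and 10 in converted cells (37.5%), and 0 fell. In partial against full iPS cells 5 were higher and 4 lower (52.9% against 18.6% of all genes). Against MEFs, Ehf, an Ets factor of epithelia, was at least 12.4-fold higher in partial cells (adjusted p = 1.53e-11). Tfap2c rose by 2.34 ± 0.20 in the same comparison (adjusted p = 2.20e-07). In 2i, 4 rose and 5 fell (52.9% against 22.4% of all genes, median -0.15). Ehf was at least 12.4-fold lower (adjusted p = 1.70e-11), while Klf5 rose by 1.63 ± 0.17 (adjusted p = 1.99e-06) and Grhl2, a factor that maintains epithelial junctions, rose by 1.18 ± 0.13 (adjusted p = 3.85e-06). Of the 6 mesenchymal repressors, 4 fell in partial cells against MEFs, among them Snai2 by 1.75 ± 0.36 (adjusted p = 0.00156) and Zeb2 by 1.55 ± 0.30 (adjusted p = 0.000831), and in partial against full iPS cells 0 of 6 passed (1 at an unadjusted p under 0.05). Of 13 AP-1 and Ets genes, 3 rose and 2 fell in partial cells against MEFs (38.5% called). Etv5, an Ets factor, rose by 2.60 ± 0.12 (adjusted p = 7.15e-11). Fos, an AP-1 subunit, rose by 1.07 ± 0.26 (adjusted p = 0.00551) and fell by 1.18 ± 0.26 in 2i (adjusted p = 0.00275), against the partial line.

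Genes of simple epithelia and their junctions gave other counts. Of 17, 5 rose and 0 fell in partial cells against MEFs (29.4% against 23.7% of all genes, median 0.22), among them Cdh1, E-cadherin, by 2.83 ± 0.19 (adjusted p = 8.49e-09), and Prom1 at least 4.26-fold (adjusted p = 1.23e-05). Epcam, an adhesion molecule of simple epithelia and ES cells, was not called there (0.68 ± 0.28, adjusted p = 0.0895). In 2i 9 rose and 1 fell (58.8% against 22.4% of all genes, median 0.63). Epcam was 7.78 in converted cells and 4.19 in partial cells (3.59 ± 0.28, adjusted p = 4.83e-08), Cldn6 rose by 2.44 ± 0.25 (adjusted p = 1.14e-06), and Cdh1 was 7.62 in converted cells and 7.13 in partial cells (0.49 ± 0.19, adjusted p = 0.0780). In partial against full iPS cells 1 of 17 was higher and 8 were lower (52.9% against 18.6% of all genes, median -0.44), with Epcam at -3.27 ± 0.24 (adjusted p = 3.09e-08).

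Markers of other cell types that could hold these keratins were read beside them. Of 15 stratified epithelium genes, 7 of them keratins counted above, 7 rose and 0 fell in partial cells against MEFs (46.7% called against 23.7% of all genes), and their mean per array was 4.81 to 5.05 in partial cells, 3.52 to 3.56 in converted cells, 4.24 to 4.34 in EOS3F-28, 3.74 to 3.77 in EOS3F-29, 3.54 to 3.65 in J1 cells and 3.52 to 4.101 in MEFs. All 3 EOS3F-28 arrays thus also exceeded the MEF arrays. Krtdap, a keratinocyte protein, was at least 34.4-fold higher in partial cells than in MEFs (adjusted p = 2.91e-13), and it was called in full iPS cells against MEFs too (adjusted p = 2.06e-09), with means of 6.82 in EOS3F-28 and 4.196 in EOS3F-29. Trp63, the defining factor of stratified epithelia, was 3.80 in partial cells and 3.74 in MEFs (adjusted p = 0.756), and Krt5 was 3.67 in partial cells. Of 8 mesothelium genes, which include Krt19 itself, 3 rose and 0 fell (37.5% called), with Msln at 7.67 in partial cells and 3.77 in MEFs (3.90 ± 0.33, adjusted p = 1.29e-07) and Wt1 at 4.05 in both. Their mean per array was 4.75 to 5.30 in partial cells, 3.71 to 3.99 in converted cells, 4.02 to 4.42 in EOS3F-28, 3.80 to 4.12 in EOS3F-29, 3.80 to 4.03 in J1 cells and 3.84 to 4.0 in MEFs. Msln was also called in full iPS cells against MEFs (1.41 ± 0.28, adjusted p = 0.000711). Of 13 trophoblast genes 5 rose and 1 fell (46.2% called), with means of 4.16 to 4.19 in partial cells and 3.74 to 3.81 in MEFs. Tfap2c (2.34), Tead4 (1.14) and Cdx2 (0.76) were called higher and Peg10 lower (-1.30). Eomes was not called, and Elf5 lay under the olfactory level in both groups. In converted, full iPS and J1 cells against MEFs 5 of 13 also rose and 0 fell (38.5% each, against 37.5%, 35% and 38% of all genes). Their array means were 4.11 to 4.38. Of 16 extraembryonic endoderm genes 1 rose and 5 fell in partial cells against MEFs (37.5% called), with means of 4.71 to 5.03 in partial cells and 5.15 to 5.21 in MEFs. The part of such cells in the keratin values was not tested.

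Over all 18 arrays, the genes most like Krt19 in pattern, among 3520 genes whose group means span at least 1, were Reep1, Hpse, Pkp1, Fos and Cpm, with Pearson correlations of 0.923 to 0.926. Pkp1 is a desmosomal plaque protein. Those most like Krt18 were Piwil2, Mov10l1, Cbfa2t2, Dock6 and Rbm47 (0.883 to 0.917), those most like Krt8 were Ak4, Anp32-ps, Prps2, Pir and Pdxp (0.793 to 0.852), and those most like Krt7 were Txndc16, Lcp1, Phyhd1, Uap1l1 and Ttyh2 (0.832 to 0.897). The 4 lists share no gene. The arrays share groups and replicate numbers, so these values describe likeness only. Between the keratins themselves the correlation over 18 arrays was 0.40 for Krt8 with Krt19, 0.34 for Krt8 with Krt18, 0.18 for Krt7 with Krt18, -0.17 for both Krt7 and Krt18 with Krt19, and -0.37 for Krt7 with Krt8. Over deviations from the group means in the 15 feeder-grown arrays it was 0.77 for Krt7 with Krt18, 0.70 for Krt8 with Krt19, 0.63 for Krt18 with Krt19, 0.57 for Krt7 with Krt19, 0.27 for Krt8 with Krt18 and -0.0003 for Krt7 with Krt8. Krt7 and Krt18 with Krt19 thus had opposite signs across all arrays and within groups, and the deviations share the replicate numbers described next.

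A further pattern, seen in the values first, ran across the groups by replicate number. In all 5 feeder-grown groups the replicate 1 array had the lowest Krt19 of its group, which was true of 3.58% of all genes. With group and number in one model over the 15 feeder-grown arrays, all 4 keratins were called higher in replicate 2 than in replicate 1 on average over the groups, where 8.16% of all genes were called higher and 16.6% in either direction. Krt19 was higher by 2.04 (adjusted p = 2.96e-07), Krt18 by 0.50 (adjusted p = 0.0110), Krt8 by 0.44 (adjusted p = 0.0315) and Krt7 by 0.40 (adjusted p = 0.0366). In replicate 3 over replicate 1 only Krt19 was called, at 1.51 (adjusted p = 4.87e-05), with 4.42% of all genes called, and in replicate 3 over replicate 2 the count was 0 of 4 (2 at an unadjusted p under 0.05) with 0.0451% of all genes called. Krt8 and Krt19 were higher in replicate 2 in each of the 5 groups. The partial line went the other way for the other 2 keratins, with Krt7 at 3.98 in replicate 2 and 4.29 in replicate 1, and Krt18 at 4.16 in replicate 2 and 4.26 in replicate 1. Krt19 in MEFs had no such order, with replicate 1 the highest.

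Fibroblast and feeder genes moved with replicate number too, in the opposite direction. All 16 were called lower in replicate 2 than in replicate 1, with a median of -1.32. In replicate 3 against replicate 1, 15 of 16 were called lower. The other, Fn1, differed by -0.41 and was not called (adjusted p = 0.06, limma). Their mean per array was 7.96, 6.96 and 6.62 in partial replicates 1, 2 and 3, 7.38, 6.14 and 6.43 in converted cells, 7.64, 6.40 and 7.14 in EOS3F-28, 8.27, 6.72 and 6.91 in EOS3F-29 and 7.42, 6.34 and 6.76 in J1 cells. All 6 mesenchymal repressors were called lower in replicate 2 than in replicate 1. Called higher were 12 of 17 simple epithelium genes and 8 of 12 pluripotency genes, with 0 called lower in either list. Of 48 other keratins 0 were called (1 at an unadjusted p under 0.05). Krt13, for one, differed by 0.21 (adjusted p = 0.440). The part of feeder cells in the keratin values was not tested. Within each number the Krt19 difference of partial from full iPS cells was 2.47, 2.35 and 3.61, and that of partial from J1 cells was 2.70, 3.04 and 3.58, so it was present with replicate 1 alone as well as without it.

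**Figure D4:**
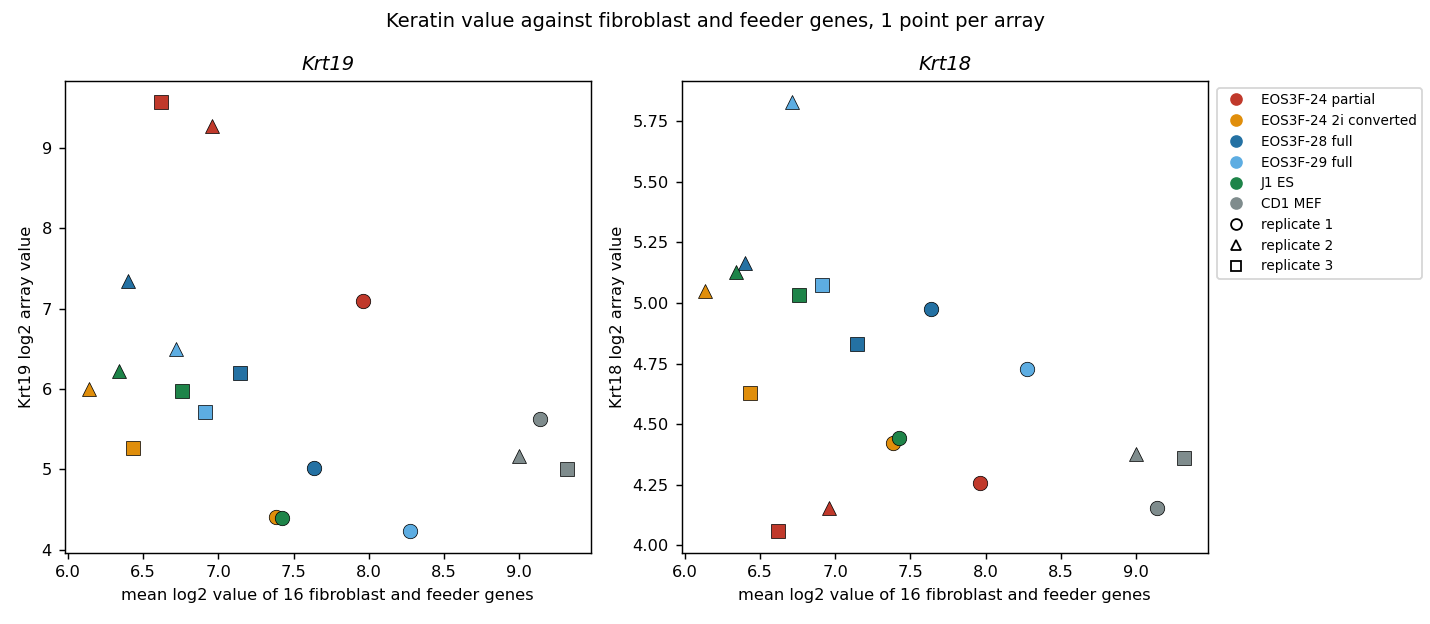
Krt19 (left) and Krt18 (right) log2 array value against the mean log2 value of 16 fibroblast and feeder genes, with 1 point per array, colour for the group and shape for the replicate number. In the 5 feeder-grown groups the replicate 1 arrays (circles) lie to the right of their partners and lowest in Krt19, and the 3 MEF arrays lie between 8.997 and 9.32.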

How the data were processed

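Expression was measured in 18 arrays of whole-transcript sense target RNA, isolated by RNeasy Mini Kit and biotin-labelled, per the labels' protocols. The authors deposited a log2 value for each probe set. Per the submitters' processing notes these are RMA values, and RMA corrects background, normalizes arrays to each other and summarises probes. Sources used here give no RMA version, genome build or annotation. RMA compresses differences near background, where the lower keratin values lie. The number of arrays limits the precision.

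Of 34760 probe sets, 21640 had 1 gene symbol in the platform annotation, 1321 had several and 11799 were not listed. Each of 19937 genes took its probe set with the highest mean, and 954 genes had more than 1. Keratin genes are similar in sequence and probe sequences were not used, so shared hybridisation was not tested. Sample titles gave the groups and the replicate numbers.

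Models with 1 mean per group over all 18 arrays were fitted with limma 3.58.1 (lmFit and eBayes) in R 4.3.3, with Benjamini-Hochberg adjustment over all genes and a threshold of 0.05. Exact permutation tests used scipy 1.17.1 in Python 3.11.15. The limma step was tested on simulated data. The keratins and the gene lists were chosen with earlier results of these data known. Genes named from a list are among its 2 largest called rises or falls in a comparison or, for cell type markers, its first 4 genes. For each keratin the 2 neighbours on each side and the 5 genes most like it could be named, and genes outside these rules were chosen after their values were seen. Equal replicate numbers paired arrays, with correlations of their deviations from group means over 0.1 for every number, in partial against J1 (0.208 to 0.242), converted against partial (0.122 to 0.383), converted against J1 (0.150 to 0.563) and EOS3F-28 against EOS3F-29 (0.149 to 0.639); this pairing comes from the values, not the labels. Alternatives were cyclic loess, housekeeping centring, other rules for probe sets and dim genes, only the arrays compared, a trended robust fit, the replicate block, a single full line and leaving out each array. A block on the feeder-grown arrays alone and leaving out their replicate 1 arrays were chosen after seeing the data. The rule of a least fold under the olfactory level was also chosen after seeing the data. Promoter windows came from RefSeq.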

Additional observations from a re-analysis of the deposited data

Results flagged for a closer look

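Krt8 differed between the 2 fully reprogrammed lines by a test of the difference itself, with replicate number as a block. EOS3F-28 minus EOS3F-29 was -0.93 (adjusted p = 0.0165, limma). Arrays of the 2 lines did not overlap, as was the case for 15% of all genes, so EOS3F-28 was lower in any pairing. Without the block the adjusted p was 0.117. The cause was not tested.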

How the results depend on the processing

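Of 312 differences of a keratin recomputed without 1 array, 294 kept their direction or stayed uncalled, 15 lost their call, 3 gained one and 0 reversed. Of 456 under the other alternatives, 430 stayed on their side, 6 lost a call, 20 gained one and 0 reversed. In 28 of all 768 the sign of an uncalled difference changed, the largest having a main size of 0.31. The number of the 4 keratins called changed as follows, and the causes were not tested. In converted cells against MEFs it was 1 instead of 2 with housekeeping centring, and 0 to 2 without 1 array. Partial against full iPS cells had 4 instead of 2 without the feeder-grown replicate 1 arrays, and 2 to 3 without 1 array. Partial cells against J1 had 1 instead of 2 with every probe set tested, where more features share the adjustment, and 1 to 2 without 1 array. Converted against partial cells had 2 instead of 1 with cyclic loess, only the arrays compared, the replicate block, and that block on feeder-grown arrays, 3 without the feeder-grown replicate 1 arrays, and 1 to 2 without 1 array. Converted against full iPS cells had 1 instead of 0 with the block on feeder-grown arrays (Krt19, -0.60, adjusted p = 0.0422). EOS3F-28 against EOS3F-29 had 1 instead of 0 with housekeeping centring, with either block and without the feeder-grown replicate 1 arrays. Without 1 array, full iPS cells against MEFs had 2 to 3 and J1 against MEFs 1 to 2, while partial cells against MEFs had 3 throughout and the other 4 comparisons 0.

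In the comparisons whose numbers paired the arrays, the replicate block changed no keratin call other than Krt18 in converted against partial cells and Krt8 between the full lines. Elsewhere the block added Krt18 in J1 against MEFs (0.57, adjusted p = 0.0111). Over all genes the count of calls in converted against full iPS cells was 1029, against 1641 with housekeeping centring, 1572 with the block, 2084 with the block on feeder-grown arrays, 493 with EOS3F-29 as the full line and 351 without converted replicate 2. In converted cells against J1 it was 342, against 543 and 737 with the blocks, 173 with only the arrays compared and 133 without J1 replicate 3. In full iPS cells against J1 it was 949, against 1596 and 2129 with the blocks, 520 with only the arrays compared and 303 without J1 replicate 3. In EOS3F-28 against EOS3F-29 it was 106, against 197 and 352 with the blocks, 46 with only the arrays compared and 43 without EOS3F-28 replicate 2. Partial against full iPS cells had 3702, and 2380 without partial replicate 2. Housekeeping centring moved the median of all genes by -0.31 in converted cells against MEFs, -0.19 in converted against partial cells, -0.17 and -0.15 in converted cells against full iPS and J1 cells, and -0.12 to -0.15 in the other comparisons with MEFs. It set the share of called genes that were higher at 19.6% instead of 52.3% in the first of these and at 19.0% instead of 41.9% in the second.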
